A study of Mus musculus with 30 samples.

Results

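The genes described here are 42 genes that encode the collagens and other proteins of the extracellular matrix of skin, or enzymes that build it. They were taken by gene symbol from the array's annotation and are 42 of the 22121 gene symbols there. Of the 45037 probe sets, 94 carry a member's symbol. Of those 94, 86 were among the 36029 probe sets that were tested, and the 8 left out for low signal were 5 of Vcan and 1 each of Lox, Fbln2 and Col12a1. Each of the 42 genes kept at least 1 tested probe set, and the probe set with the highest mean over all arrays stands for a gene below unless another is named.

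Back skin came from female mice of the strain 129–C57BL/6 aged 8 to 12 weeks, either wild type (WT) or lacking the atypical chemokine receptor D6 (D6-deficient). The shaved skin received 3 applications of 50 μM TPA, a phorbol ester that irritates skin, 24 h apart, and was taken 1, 2, 4 or 6 days later. Controls of each genotype, which stand as day 0, received acetone in place of TPA although the word untreated stands in their titles. There were thus 10 groups, each with 3 Affymetrix mouse arrays labelled as biological replicates, and the methods speak of 3 mice a group. The labels call these mice D6 null and name no promoter or cell type for the deletion, and whole skin was measured, in which fewer cells of a type and less RNA per cell cannot be told apart.

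Dermal fibroblasts secrete the fibrillar collagens, which assemble into fibres that small leucine-rich proteoglycans space, lysyl oxidases cross-link and elastic fibres accompany. At the junction with the epidermis, keratinocytes and fibroblasts together lay down a basement membrane of laminins and type IV collagen, to which type XVII collagen and type VII collagen anchor the cells above and the fibres below. In irritated or wounded skin a provisional matrix rich in fibronectin, tenascin-C, thrombospondins and hyaluronan is known to be laid down before the mature matrix is rebuilt.

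The deposited intensities were used on the log2 scale, so that a difference of 1 is a change of 2-fold. The medians of the 30 arrays lay between 5.64 and 5.80, arrays of the same group correlated at 0.972 to 0.994 across probe sets, and the spread within a group had a median SD of 0.187 over tested probe sets and of 0.292 over those of the matrix genes. On 1 of the 3 probe sets of Ccbp2, the D6 gene, levels of 4.15 to 5.76 on the 15 WT arrays stood above 3.30 to 3.86 on the 15 D6-deficient ones, whereas the genotypes overlapped on the others. Dpt, a marker of fibroblasts, Krt14, a marker of keratinocytes, and Acta1, a marker of skeletal muscle, were bright on every array. The matrix level of D6-deficient day 0 replicate 3 was low, its mean being the lowest of its group's 3 arrays in each of the role groups below, for example 9.39 against 10.18 and 10.36 in collagen cross-linking and folding. The WT day 0 arrays were spread as well, for example at 12.95, 13.61 and 12.58 for replicates 1, 2 and 3 in the fibrillar collagens. Clustering of the arrays by their hybridization controls was cut to give 2 sets, which held 17 and 13 arrays. As the number of sets was fixed in advance, this does not show that the arrays truly divide. The 3 arrays of D6-deficient day 6 fell in the set of 17, so that group has no values in the smaller set. With 3 arrays against 3, an exact permutation test cannot give a p under 0.1, so the tests below come from limma fitted to all probe sets and all arrays, with Benjamini-Hochberg adjustment. A probe set "passed" at an adjusted p under 0.05.

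TPA moved the matrix genes chiefly on day 4, and mostly downwards. In WT skin, 50 of the 86 matrix probe sets passed on day 4 against day 0 (58.1%, against 39.1% of all tested probe sets), of which 36 were lower and 14 higher. In D6-deficient skin, 50 passed on day 4 (58.1%, against 41.1% of all tested probe sets), 32 lower and 18 higher. The higher probe sets, 16.3% in WT and 20.9% in D6-deficient skin, stood near their background of 17.3% and 18.8%. The lower probe sets made up 41.9% of the matrix probe sets in WT skin, where 21.8% of all tested probe sets were lower, and 37.2% in D6-deficient skin, where 22.4% were. Changes of over 3-fold were rarer. They were passed by 11 of 86 on WT day 4 (12.8%, against 3.24% of all) and 14 on D6-deficient day 4 (16.3%, against 4.01%), by 5, 2 and 3 on WT days 1, 2 and 6 (background 1.77%, 1.9% and 1.34%) and by 4, 8 and 4 on the same D6-deficient days (background 2.49%, 3.27% and 2.13%). By genes, 17 of 42 fell and 7 rose in WT skin, and 18 fell and 9 rose in D6-deficient skin. The median change of the 42 genes on day 4 was -0.43 for WT and -0.26 for D6-deficient mice, while that of all tested probe sets was 0.01 for either.

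On the other days the share of matrix probe sets that passed lay nearer to the background. In WT skin 25 passed on day 1 (29.1%, against 24% of all), 25 on day 2 (29.1%, against 26.1%) and 24 on day 6 (27.9%, against 22.1%). In D6-deficient skin 35 passed on day 1 (40.7%, against 36.3% of all), 37 on day 2 (43%, against 38.1%) and 33 on day 6 (38.4%, against 31.7%). In WT skin 13, 8 and 13 of them were higher on days 1, 2 and 6 (15.1%, 9.3% and 15.1%, against 11.4%, 11% and 10.2% of all). There 12, 17 and 11 were lower (14%, 19.8% and 12.8%, against 12.7%, 15% and 11.9%). In D6-deficient skin 19, 23 and 19 were higher (22.1%, 26.7% and 22.1%, against 18.2%, 17.5% and 16% of all). There 16, 14 and 14 were lower (18.6%, 16.3% and 16.3%, against 18.1%, 20.6% and 15.7%). On D6-deficient day 2 the higher share thus stood above its background and the lower share below it. The count on WT day 6 leaned on single arrays, with 10 probe sets passing without replicate 2 and 15 without replicate 3 of that day.

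**Figure D1:**
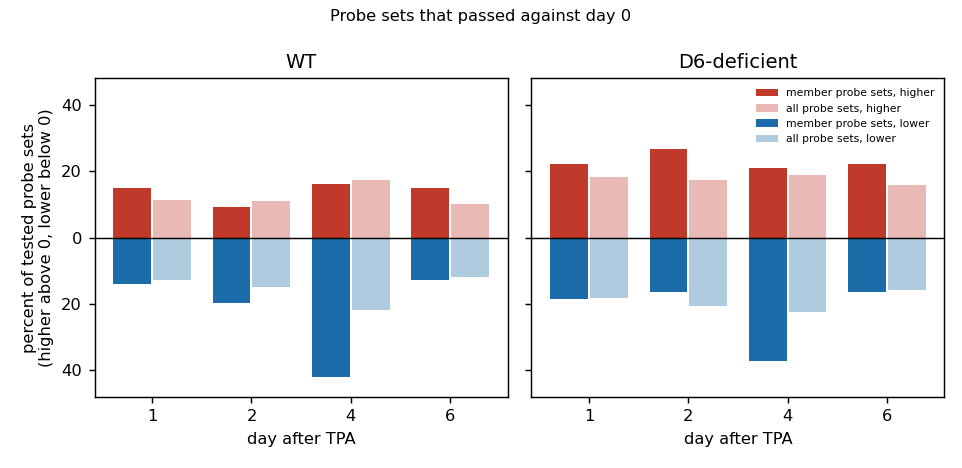
Percent of tested probe sets that passed against day 0 of the same genotype (vertical axis, higher above 0 and lower below 0) on each day after TPA (horizontal axis), for the 86 probe sets of the matrix genes in dark bars and all 36029 in light bars. On day 4 the dark bars below 0 reach 41.9% in WT and 37.2% in D6-deficient skin, past the light bars at 21.8% and 22.4%.

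Other features of the skin moved with the day as well. The mean log2 level of 5 keratinocyte markers went from 11.89 to 12.03 on the WT day 0 arrays to 10.31 to 11.54 on day 4, and from 12.45 to 12.63 to 9.55 to 10.49 on the D6-deficient arrays. In WT skin 2 of the 5 passed as lower, namely Krt1 at -2.52 and Krt10 at -4.27, keratins of differentiating cells, while Krt14 of the basal layer rose by 1.10 and Krt5 and Trp63 were at 0.22 and -0.02. In D6-deficient skin 4 of the 5 passed as lower and Krt14 was at -0.13. That of 5 neutrophil markers went from 5.42 to 5.79 to 7.62 to 8.56 in WT and from 5.54 to 5.75 to 8.34 to 9.04 in D6-deficient skin, with 4 of 5 passing in both and Elane near the lower end of the scale in every group. Of 7 fibroblast markers, 1 passed as higher and 3 as lower on day 4 in WT skin, and 2 and 3 in D6-deficient skin. Their mean level was 11.38 to 11.59 on WT day 0 and 10.93 to 10.97 on WT day 4, and 10.90 to 11.35 and 10.78 to 10.87 in D6-deficient skin. Pdgfra rose from a mean of 11.5 to 12.1 in WT skin. The largest falls there were larger than this rise, in Cd34 from 12.13 to 10.68, Pi16 from 11.92 to 10.65 and Dpt from 13.67 to 12.64. Of 6 smooth muscle and pericyte markers 4 were lower on day 4 in both genotypes, and 6 of 6 skeletal muscle markers were. The mean levels of both lists were below day 0 on the other TPA days as well. Skeletal muscle markers in WT skin stood at 13.40 on day 0 and at 12.21, 12.28, 12.53 and 12.35 on days 1, 2, 4 and 6. In D6-deficient skin they stood at 13.28 and at 11.48, 11.73, 12.05 and 11.53. Of 6 hair follicle markers, 6 were higher on days 1 and 6 in both genotypes, with median changes of 4.24 to 5.98, against -0.10 to 0.24 on days 2 and 4. The part of these shifts in the changes of the matrix genes was not tested.

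**Figure D2:**
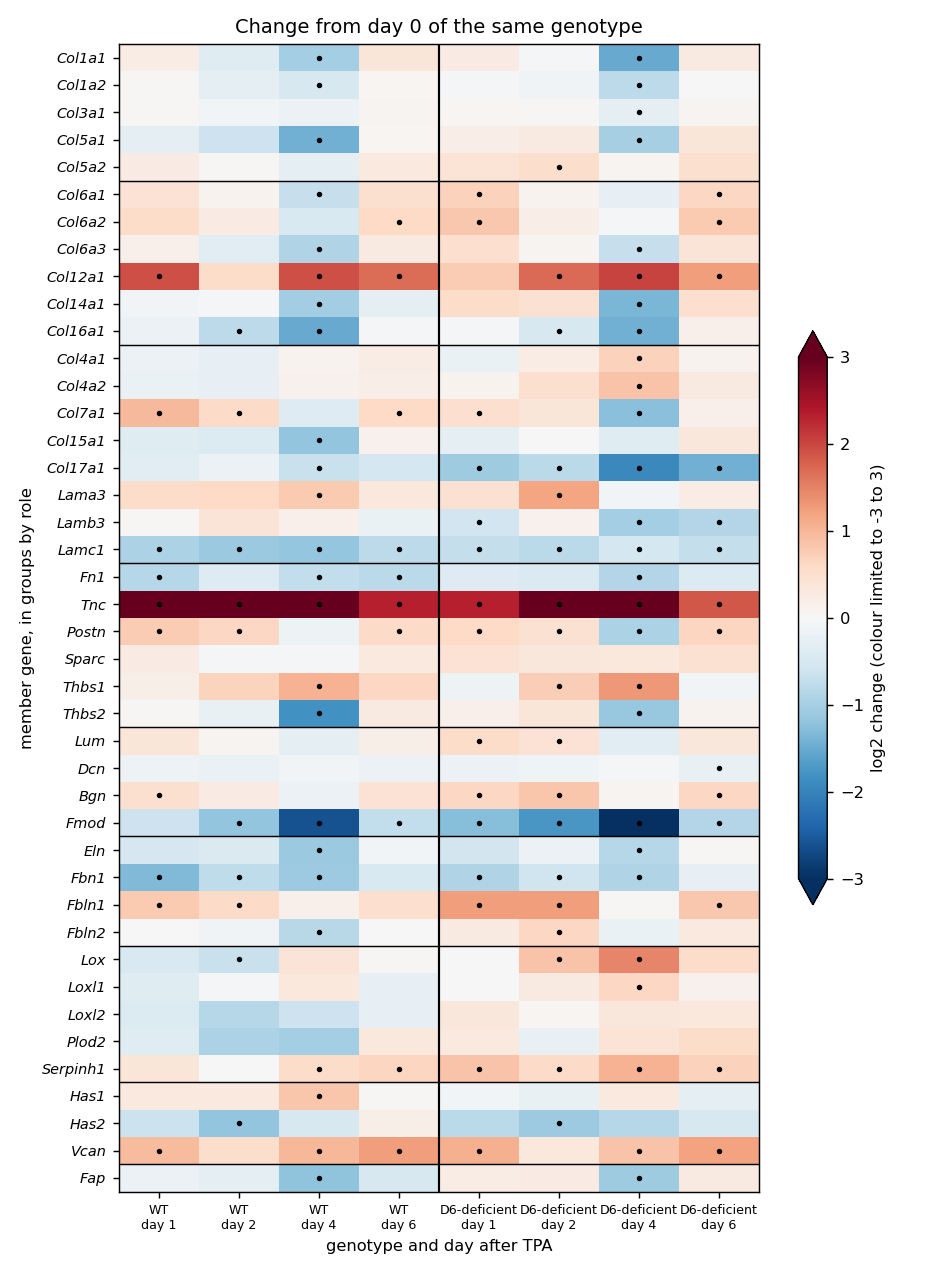
Log2 change from day 0 of the same genotype (colour, limited to -3 to 3) for each of the 42 genes (rows, in groups by role) on each day in WT and D6-deficient skin (columns), with a dot where the change passed. Blue cells gather in the day 4 columns, with 17 genes lower for WT and 18 for D6-deficient skin, while the row of Tnc is red in all 8 columns.

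The fibrillar collagens, which form the bulk of the dermal fibres, fell on day 4. Of the 5 members, 3 fell in WT skin and 4 in D6-deficient skin, with medians of -0.49 and -0.78, where 21.8% and 22.4% of all tested probe sets were lower. Col1a1, the main chain of type I collagen, was at 12.93, 13.10 and 11.99 on the D6-deficient day 0 arrays and at 11.07, 11.01 and 11.39 on day 4. The day 4 arrays lay below each of the day 0 arrays, a change of -1.52 (SE 0.29, adjusted p = 1.49e-04) or 2.86-fold. In WT skin Col1a1 was at 12.40, 13.70 and 11.96 on day 0 and at 11.56, 11.90 and 11.54 on day 4, a change of -1.02 (SE 0.29, adjusted p = 0.00656). The day 0 arrays of this gene were spread over more than a unit in both genotypes. Col5a1, which seeds fibril assembly, was at 11.09, 11.84 and 10.64 on WT day 0 and at 9.82, 9.94 and 9.47 on WT day 4, and fell by 1.45 (SE 0.28, adjusted p = 2.29e-04) without overlap. In D6-deficient skin it fell by 0.99 (SE 0.28, adjusted p = 0.00648), with arrays that overlapped. Col1a2, the partner chain of Col1a1, fell by 0.49 in WT and 0.78 in D6-deficient skin. The day 4 changes of Col3a1, the type III chain, were -0.17 in WT skin, which did not pass, and -0.27 in D6-deficient skin (adjusted p = 0.0452). Those of Col5a2 were -0.30 and 0.07, neither of which passed. Before and after day 4 the fibrillar collagens stayed near their day 0 levels, with 1 of the 5 passing on any of days 1, 2 and 6, namely Col5a2 on D6-deficient day 2 at 0.52 (adjusted p = 0.0296).

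Of the second probe sets of these genes, those of Col1a1 and 1 of Col1a2 and both others of Col5a1 passed as lower on WT day 4 as well, with changes from -0.78 to -1.24. Another probe set of Col1a2 and the second of Col3a1 were at -0.02 and 0.02 there. Across the group, the mean level of the 5 genes ran from 12.58 to 13.61 on the WT day 0 arrays and from 12.36 to 13.19 on the D6-deficient ones, against 12.22 to 12.55 and 12.03 to 12.30 on day 4. In both genotypes the day 4 arrays thus lay below each of the day 0 arrays.

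Among the collagens of beaded filaments and those that sit on fibril surfaces, 4 of 6 fell and 1 rose on WT day 4, and 3 fell and 1 rose in D6-deficient skin. The background was 21.8% lower and 17.3% higher of all tested probe sets in WT skin, and 22.4% and 18.8% in D6-deficient skin. Col16a1, a fibril-associated collagen, was at 9.37, 9.75 and 9.35 on WT day 0, at 8.67, 8.65 and 8.78 on day 2 and at 7.83, 8.20 and 7.90 on day 4. Its fall was thus under way on day 2, at -0.79 (SE 0.18, adjusted p = 0.00184), and reached -1.51 on day 4 (SE 0.18, adjusted p = 4.45e-07). In D6-deficient skin it went from 9.42, 9.64 and 8.99 to 8.21, 7.65 and 7.87 on day 4, a change of -1.44 (SE 0.18, adjusted p = 6.60e-07). By day 6 it was at -0.05 and 0.16 against day 0 in WT and D6-deficient skin, and neither value passed. Col14a1, which binds fibril surfaces, was at 10.31, 10.53 and 9.74 on D6-deficient day 0 and at 8.91, 8.71 and 8.83 on day 4, and fell by 1.38 (SE 0.24, adjusted p = 5.23e-05). On WT arrays it fell by 1.04 (SE 0.24, adjusted p = 0.00121). A further probe set of Col14a1 behaved otherwise, rising by 2.70 on day 1 and 2.57 on day 2 in D6-deficient skin and standing at 0.57 on day 4, which did not pass. The type VI collagen chains, which form a beaded network around cells and fibres, fell on WT day 4 in Col6a1 by 0.70 and in Col6a3 by 0.90, while Col6a2 at -0.46 did not pass. They had gone the other way on D6-deficient day 1, where Col6a1 rose by 0.68 and Col6a2 by 0.80, and on D6-deficient day 6, where they rose by 0.62 and 0.79. Col6a1 and Col6a2 are neighbours on the mouse genome, as are Col3a1 and Col5a2, Dcn and Lum, and Col4a1 and Col4a2.

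Col12a1, a fibril-associated collagen that bridges fibres, was the exception in this group and rose on day 4 in both genotypes. It was at 6.43, 6.22 and 5.92 on WT day 0 and at 8.02, 7.90 and 8.42 on WT day 4, a change of 1.92 (SE 0.38, adjusted p = 2.95e-04) or 3.79-fold. In D6-deficient skin it went from 6.36, 6.88 and 6.00 to 8.68, 8.33 and 8.30, a change of 2.02 (SE 0.38, adjusted p = 1.46e-04). Its course before day 4 was uneven. WT arrays stood at 8.25, 7.56 and 8.58 on day 1 and returned to 6.49, 6.92 and 6.84 on day 2, whereas D6-deficient arrays stood at 7.26, 7.34 and 6.91 on day 1 and 8.15, 8.04 and 8.15 on day 2. On day 6 the D6-deficient arrays were far apart, at 7.81, 8.84 and 6.33.

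**Figure D3:**
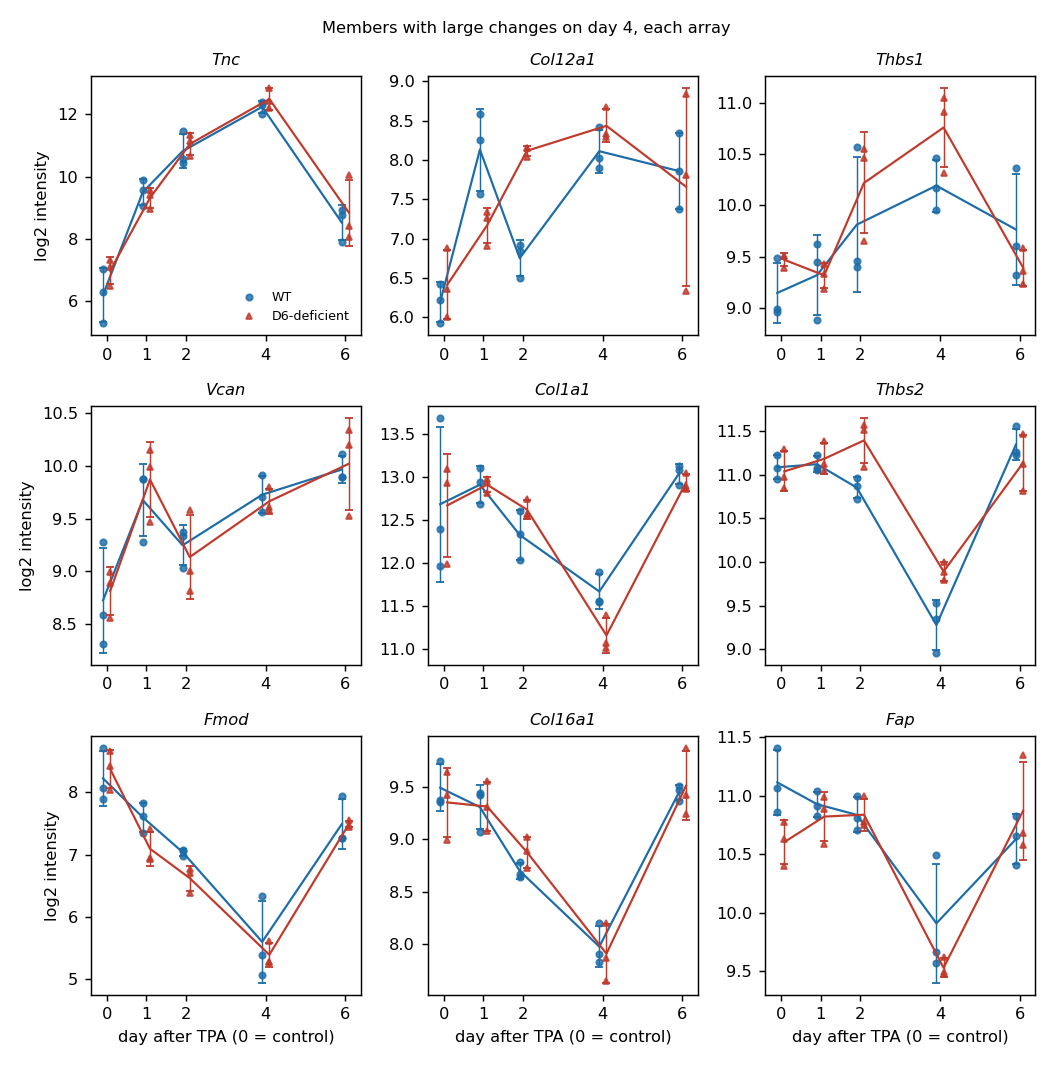
Log2 intensity (vertical axes, each with its own range) on each array of WT skin (blue circles) and D6-deficient skin (red triangles) against day (horizontal axis, day 0 being controls) for 9 of the genes, with lines through group means and bars of 1 SD, n = 3. Tnc, Col12a1, Thbs1 and Vcan are high on day 4, while Col1a1, Thbs2, Fmod, Col16a1 and Fap are lowest on day 4 and higher again on day 6. The Fmod means of day 6 stay below those of day 0 in both genotypes.

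Tnc rose more than any other matrix gene on every day in WT skin. Tenascin-C, its product, is a matricellular protein of healing and inflamed tissue. The gene was at 6.29, 7.02 and 5.30 on the WT day 0 arrays, at 9.89, 9.05 and 9.56 on day 1, at 10.56, 11.45 and 10.43 on day 2, at 12.30, 12.02 and 12.39 on day 4 and at 7.90, 8.92 and 8.75 on day 6. The change was 3.30 on day 1, 4.61 on day 2, 6.03 on day 4 (SE 0.42, adjusted p = 1.95e-10), or 65.4-fold, and 2.32 on day 6. In D6-deficient skin it went from 7.11, 6.50 and 7.33 on day 0 to 12.85, 12.18 and 12.42 on day 4, a change of 5.50 (SE 0.42, adjusted p = 4.56e-10), or 45.4-fold. In neither genotype did the TPA arrays of any day overlap with those of day 0. The genotypes did not differ in Tnc past the threshold on any day. A dimmer second probe set of Tnc also peaked on day 4, where it rose by 4.04 in WT and 4.25 in D6-deficient mice, with smaller changes of 0.70 and 1.03 on day 1.

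The remaining provisional matrix genes went separate ways on day 4. Thbs1, whose product thrombospondin-1 activates TGF-beta, was at 9.49, 8.99 and 8.96 on WT day 0 and at 10.17, 9.95 and 10.46 on day 4, and rose by 1.05 (SE 0.29, adjusted p = 0.00587). In D6-deficient skin it went from 9.51, 9.39 and 9.51 to 11.05, 10.91 and 10.32 and rose by 1.29 (SE 0.29, adjusted p = 9.15e-04). Both of its other probe sets passed as higher there too. Its relative Thbs2, which limits the growth of vessels and shapes collagen fibrils, fell on the same day. WT arrays of Thbs2 were at 11.22, 11.07 and 10.95 on day 0, at 10.87, 10.72 and 10.96 on day 2, at 9.35, 9.52 and 8.96 on day 4 and at 11.26, 11.55 and 11.22 on day 6. The change on day 4 was -1.81 (SE 0.16, adjusted p = 9.16e-09) or 3.49-fold, and the neighbouring days did not pass. In D6-deficient skin Thbs2 fell by 1.15 on day 4 (SE 0.16, adjusted p = 4.98e-06), and its other probe sets by 1.79 and 1.62.

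Postn, the gene of periostin, rose by 0.77 on WT day 1 and by 0.60 on D6-deficient day 1 and was also up on days 2 and 6 in both genotypes. On day 4 the D6-deficient arrays stood at 12.17, 11.90 and 12.00 against 13.13, 12.82 and 13.00 on day 0, a fall by 0.96 (SE 0.18, adjusted p = 1.72e-04), while the WT arrays at 12.43, 13.35 and 12.34 overlapped with 12.63, 13.30 and 12.66 on day 0. Fn1, the gene of fibronectin, fell by 0.86 on day 1, 0.74 on day 4 and 0.81 on day 6 in WT skin and by 0.87 on day 4 in D6-deficient skin. A second Fn1 probe set showed larger falls on each day, from -1.98 to -2.63 in WT and from -1.61 to -1.96 in D6-deficient skin, and passed in all 8 comparisons. Sparc, a collagen-binding matricellular gene, passed on no day on its brightest probe set, with changes from -0.04 to 0.45, although its others passed as lower at -0.43 on WT day 4 and at -0.44 and -0.49 on D6-deficient days 1 and 6.

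Fmod showed the steepest fall among the small leucine-rich proteoglycans, which bind collagen fibrils and set their spacing. Its product fibromodulin was represented by 6 probe sets. On the brightest, WT arrays were at 8.07, 8.72 and 7.89 on day 0, 7.62, 7.36 and 7.83 on day 1, 7.07, 7.08 and 6.98 on day 2, 5.39, 6.34 and 5.08 on day 4 and 7.95, 7.26 and 7.26 on day 6. The values went down step by step to day 4 and were still below day 0 on day 6, at -0.73 (adjusted p = 0.0395). The day 4 change was -2.62 (SE 0.25, adjusted p = 2.26e-08), or 6.15-fold. D6-deficient arrays went from 8.66, 8.05 and 8.43 to 5.29, 5.28 and 5.62 on day 4, a change of -2.98 (SE 0.25, adjusted p = 1.97e-09), or 7.89-fold. Its 5 other probe sets passed as lower on day 4 in both genotypes, with changes from -0.96 to -1.87. The other proteoglycans of the family moved little on day 4, where Lum, Dcn and Bgn were between -0.33 and 0.08 and did not pass in either genotype. Bgn rose by 0.48 on WT day 1 and by 0.63, 0.82 and 0.63 on D6-deficient days 1, 2 and 6, and Lum by 0.56 and 0.43 on D6-deficient days 1 and 2. Dcn, a core proteoglycan of dermal collagen, ran from 13.44 to 13.99 over the 30 arrays.

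Of the 4 elastic fibre genes, 3 passed as lower on day 4 in WT skin and 2 in D6-deficient skin, where 21.8% and 22.4% of all tested probe sets were lower. Eln, the gene of elastin, fell by 1.11 in WT and 0.86 in D6-deficient skin, on day 0 arrays that lay between 9.13 and 11.04. Fbn1, the gene of the microfibril protein fibrillin-1, was already down on day 1, with WT arrays at 11.70, 11.40 and 11.63 against 12.88, 13.15 and 12.66 on day 0. Its change there was -1.32 (SE 0.23, adjusted p = 1.63e-04), and -1.09 on day 4. Fbln2 fell by 0.84 on WT day 4 and rose by 0.63 on D6-deficient day 2. For Fbln1 the probe sets disagreed. The brightest rose by 1.25 on D6-deficient day 1 and by 1.24 on day 2 and was near day 0 on day 4, whereas another fell by 1.01 on WT day 4 and by 1.03 on D6-deficient day 4, so that no direction can be given for the gene as a whole.

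Fap, a protease on the surface of activated fibroblasts, was at 11.07, 11.41 and 10.86 on WT day 0 and at 9.66, 10.49 and 9.57 on day 4, and fell by 1.21 (SE 0.20, adjusted p = 5.17e-05). D6-deficient arrays fell from 10.63, 10.78 and 10.40 to 9.62, 9.47 and 9.49, by 1.08 (SE 0.20, adjusted p = 1.57e-04). On days 1, 2 and 6 its changes lay between -0.49 and 0.27 and did not pass.

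No gene among the 5 enzymes and chaperones of collagen assembly passed as lower on day 4, and 1 rose in WT skin and 3 in D6-deficient skin. Of all tested probe sets, 21.8% were lower and 17.3% higher in WT skin, and 22.4% and 18.8% in D6-deficient skin. The lowest change of the 5 was that of Plod2 in WT skin at -1.02 (SE 0.52, adjusted p = 0.128). Serpinh1, a chaperone of procollagen, was at 11.30, 11.43 and 10.50 on D6-deficient day 0 and at 12.13, 12.05 and 12.15 on day 4, and rose by 1.03 (SE 0.20, adjusted p = 1.61e-04), or by 0.74 without the low replicate 3 of day 0. In WT skin it rose by 0.54 on day 4 and 0.65 on day 6. Lox, which oxidises lysines so that collagen and elastin can be cross-linked, was at 10.72, 10.81 and 10.56 on D6-deficient day 0 and at 11.80, 12.33 and 12.33 on day 4, and rose by 1.46 (SE 0.22, adjusted p = 9.05e-06) or 2.74-fold. On WT day 4 its brightest probe set was at 0.38, which did not pass, and the second rose by 0.91. Loxl1 rose by 0.62 on D6-deficient day 4. Loxl2 and Plod2, a lysyl hydroxylase, passed on no day in either genotype, and their SEs of 0.42 and 0.52 were among the wider of these genes.

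Among the hyaluronan genes, Vcan was the most regular. Versican, its product, is a large proteoglycan that binds hyaluronan. On WT arrays it was at 8.58, 9.28 and 8.31 on day 0 and at 9.56, 9.91 and 9.71 on day 4, and rose by 1.01 (SE 0.24, adjusted p = 0.00190). It also rose on days 1 and 6 in both genotypes and by 0.85 on D6-deficient day 4, and stood highest on day 6, at 1.25 in WT skin and 1.21 in D6-deficient skin. Has1, a hyaluronan synthase, was at 6.24, 6.42 and 6.37 on WT day 0 and at 7.16, 7.12 and 7.27 on day 4, and rose by 0.84 (SE 0.22, adjusted p = 0.00376), while the D6-deficient change of 0.30 did not pass. Has2, another synthase, fell on day 2 instead, by 1.18 in WT and 1.10 in D6-deficient skin.

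The basement membrane and anchoring genes were mixed on day 4, with 1 higher and 3 lower of 8 in WT skin and 2 higher and 4 lower in D6-deficient skin. The background was 17.3% higher and 21.8% lower of all tested probe sets in WT skin, and 18.8% and 22.4% in D6-deficient skin. On D6-deficient day 4, Col4a1 rose by 0.69 (SE 0.22, adjusted p = 0.0119) and Col4a2 by 0.86 (SE 0.21, adjusted p = 0.00164), the 2 chains of the common type IV collagen, whose start sites lie 21 bases apart on opposite strands. On WT day 4 they were at 0.11 and 0.13 and did not pass. Of 5 endothelial markers 3 were higher and 0 lower on D6-deficient day 4, against 1 higher and 2 lower on WT day 4, and their part in the values of type IV collagen was not tested. Col17a1, the transmembrane collagen of the hemidesmosome, was at 10.91, 11.03 and 10.88 on D6-deficient day 0 and at 9.08, 8.64 and 9.30 on day 4, and fell by 1.93 (SE 0.20, adjusted p = 4.37e-08) or 3.82-fold. It was lower on days 1, 2 and 6 as well, by 1.07, 0.82 and 1.43. In WT skin it fell by 0.67 on day 4 (SE 0.20, adjusted p = 0.00955). Col7a1, the anchoring fibril collagen, rose by 0.97 on WT day 1 and by 0.51 on D6-deficient day 1, but fell by 1.25 on D6-deficient day 4 (SE 0.16, adjusted p = 8.10e-07). Lamb3, a beta chain of the epidermal laminin, fell by 1.02 on D6-deficient day 4. Lama3, its alpha chain, rose by 0.78 on WT day 4 and by 1.19 on D6-deficient day 2, while a second probe set stayed between -0.10 and 0.22. Lamc1, the gamma chain of many laminins, fell on each day in both genotypes, by 0.53 to 1.16. Its second probe set passed in 0 of the 8 comparisons. Col15a1, a collagen of vessel and muscle basement membranes, fell by 1.19 on WT day 4 and was at -0.36 in D6-deficient skin.

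**Figure D4:**
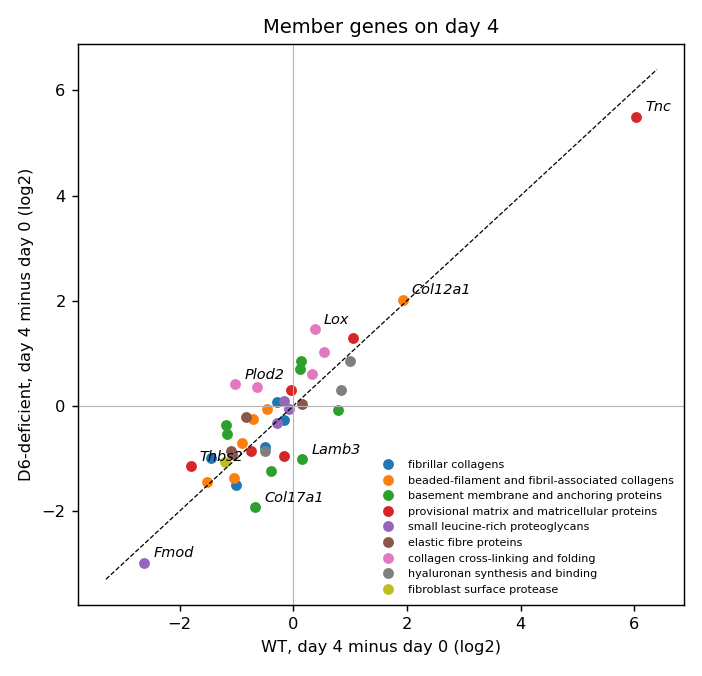
Log2 change from day 0 to day 4 in D6-deficient skin (vertical axis) against that in WT skin (horizontal axis) for each of the 42 genes, coloured by role, with a dashed line where the changes are equal. Tnc stands far to the upper right at 6.03 and 5.50, Fmod to the lower left at -2.62 and -2.98, and Lox, Lamb3 and Col17a1 lie off the line.

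The fall was short. Of 42 genes, 24 in WT and 23 in D6-deficient skin had their lowest group mean on day 4, and 8 and 12 had it on day 0. Such a count was not taken over all tested probe sets, so it has no background. From day 2 to day 4, 29 matrix probe sets passed in WT skin (33.7%, against 14.5% of all tested probe sets), 21 of them lower (24.4%, against 7.39%), and 38 in D6-deficient skin (44.2%, against 16.3%), 29 of them lower (33.7%, against 8.54%). From day 4 to day 6, 44 passed in WT (51.2%, against 22.1% of all) and 52 in D6-deficient skin (60.5%, against 31.4%), and 37 of each were higher (43%, against 12.1% in WT and 16.8% in D6-deficient skin). The largest rises between those days in D6-deficient skin were in Fmod at 2.10, Col14a1 at 1.88 and Col1a1 at 1.78, and in WT skin in Thbs2 at 2.07, Fmod at 1.89 and Col5a1 at 1.51. Tnc went the other way and fell by 3.71 in WT and by 3.64 in D6-deficient skin. Between days 1 and 2 few passed, 2 in WT (2.33%, against 1.2% of all) and 9 in D6-deficient skin (10.5%, against 10.4%), among them Tnc, which rose by 1.73 in D6-deficient skin. These steps share arrays with the comparisons to day 0 and are not independent of them.

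Sequence upstream of the start site is shown for 4 genes that moved on day 4, so that the letters searched can be seen: Tnc, which rose, Fmod and Thbs2, which fell, and Col6a1, which fell in WT skin. The windows come from RefSeq on the mouse build GRCm38.p6, in which 25 of the 42 genes had 30 windows of 250 bases before to 50 after a start, and the 250 upstream bases are printed 5′ to 3′ on the strand of the gene with motif matches in capitals. The following motifs were searched by their letters on both strands: the TPA response element TGACTCA, a site of AP-1 factors, the TATA box TATAAA, and the CCAAT box CCAAT.
Tnc (chr4:64047016-64047265, minus strand): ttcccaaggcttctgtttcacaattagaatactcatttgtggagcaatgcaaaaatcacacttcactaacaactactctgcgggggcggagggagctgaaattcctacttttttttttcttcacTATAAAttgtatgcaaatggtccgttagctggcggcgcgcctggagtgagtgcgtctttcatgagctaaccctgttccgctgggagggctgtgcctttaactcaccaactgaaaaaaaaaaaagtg
Fmod (chr1:134037004-134037253, plus strand): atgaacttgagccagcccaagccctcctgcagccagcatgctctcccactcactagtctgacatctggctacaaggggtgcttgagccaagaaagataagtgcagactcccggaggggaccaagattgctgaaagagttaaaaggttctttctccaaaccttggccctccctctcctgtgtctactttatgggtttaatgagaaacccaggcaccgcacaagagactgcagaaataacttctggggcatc
Thbs2 (chr17:14694263-14694512, minus strand): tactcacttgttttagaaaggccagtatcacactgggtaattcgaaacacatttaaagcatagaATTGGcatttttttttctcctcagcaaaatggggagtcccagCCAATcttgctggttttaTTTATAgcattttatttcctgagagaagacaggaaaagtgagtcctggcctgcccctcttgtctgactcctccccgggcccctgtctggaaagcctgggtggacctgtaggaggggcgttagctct
Col6a1 (chr10:76726045-76726294, minus strand): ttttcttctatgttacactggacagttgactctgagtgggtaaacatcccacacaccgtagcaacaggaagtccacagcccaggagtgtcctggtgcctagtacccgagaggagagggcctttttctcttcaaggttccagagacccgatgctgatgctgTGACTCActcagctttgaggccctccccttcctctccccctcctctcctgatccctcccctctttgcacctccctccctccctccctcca
The TPA response element was present in 1 of the 30 windows, that of Col6a1, with its first base at -90 from the start, and in 5.2% of 32851 windows of all genes. The TATA box was present in 6 of the 30, those of the 5 genes Col17a1, Col3a1, Postn, Thbs2 and Tnc, and in 13.6% of all windows. In both Tnc and Thbs2 a TATA match begins at -126. The CCAAT box was present in 11 of the 30 and in 37.4% of all windows, with matches at -186 and -144 in Thbs2, while no motif was found in the Fmod bases shown and its CCAAT match lies at 35 after the start. Each match is a run of letters and says nothing on whether a factor binds.

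The genotypes differed in few matrix genes. On day 0, 0 of the 86 probe sets passed (0%, against 1.57% of all tested probe sets). In limma, 5146 of all 36029 and 19 of the 86 had an unadjusted p under 0.05. The 3 smallest adjusted p values were those of Col17a1, Col7a1 and Loxl1. Col17a1 was at 10.30, 10.31 and 10.04 on WT arrays and at 10.91, 11.03 and 10.88 on D6-deficient arrays, a difference of 0.72 (SE 0.20, adjusted p = 0.0669). The arrays of the genotypes did not overlap. Col7a1 was at 6.85, 7.28 and 7.15 on WT arrays and at 7.53, 7.74 and 7.60 on D6-deficient arrays, a difference of 0.53 (SE 0.16, adjusted p = 0.0877). Loxl1 was lower in D6-deficient skin by -0.54 (SE 0.17, adjusted p = 0.101), with WT arrays at 11.06, 11.35 and 10.96 and D6-deficient arrays at 10.63, 11.02 and 10.08. It was -0.29 without D6-deficient replicate 3 and -0.76 without D6-deficient replicate 2, where it passed (adjusted p = 0.0177). Of 5 keratinocyte markers 3 were also higher in D6-deficient skin on day 0, with mean levels of 12.45 to 12.63 against 11.89 to 12.03, and their part in the values of Col17a1 and Col7a1 was not tested.

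Day 2 was the day on which matrix genes passed between the genotypes. There 5 of 86 probe sets passed (5.81%, against 4.45% of all tested probe sets), 2 each of Lox and Col12a1 and 1 of Lama3, and 5 of 5 were higher in D6-deficient skin, as were 2.46% of all. Lox was at 10.38, 11.25 and 10.24 on WT arrays and at 11.41, 11.61 and 11.64 on D6-deficient arrays. The difference was 0.93 (SE 0.22, adjusted p = 0.0115), or 1.91-fold, and that on the second probe set 1.06 (SE 0.24, adjusted p = 0.00889). Col12a1 differed by 1.37 (SE 0.38, adjusted p = 0.0381) and by 1.36 on its second probe set (SE 0.29, adjusted p = 0.00545), without overlap on either. Lama3 was at 8.16, 8.82 and 7.88 on WT arrays and at 8.75, 9.25 and 9.74 on D6-deficient arrays, which overlap, and differed by 0.96 (SE 0.26, adjusted p = 0.0332). These calls were often lost with fewer arrays, although the Col12a1 difference on the brightest probe set stayed between 1.24 and 1.45. With 1 array left out at a time, the call was lost in 6 of 6 cases for Col12a1 and in 4 of 6 for Lox and for Lama3, on the brightest probe set of each. With only the arrays of day 2 in the fit, Lox had an adjusted p of 0.0707 and Lama3 one of 0.113. Without WT replicate 1 or replicate 3 of day 2 the count was 1, and without D6-deficient replicate 2 or 3 it was 2. Neutrophil markers stood at 7.93 to 9.40 on D6-deficient and 6.15 to 6.99 on WT arrays of that day, with 4 of 5 passing as higher. Macrophage markers stood at 11.48 to 11.65 against 10.88 to 11.20, with 2 of 5 passing as higher, and endothelial markers at 8.60 to 9.12 against 8.32 to 8.58, with differences of 0.19 to 0.65 for the 5 genes, which did not pass. The part of these markers in the differences was not tested. Within the array sets of 17 and 13 the difference in Lox was 0.89 and 1.13, that in Col12a1 1.28 and 1.61 and that in Lama3 1.39 and 0.84.

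**Figure D5:**
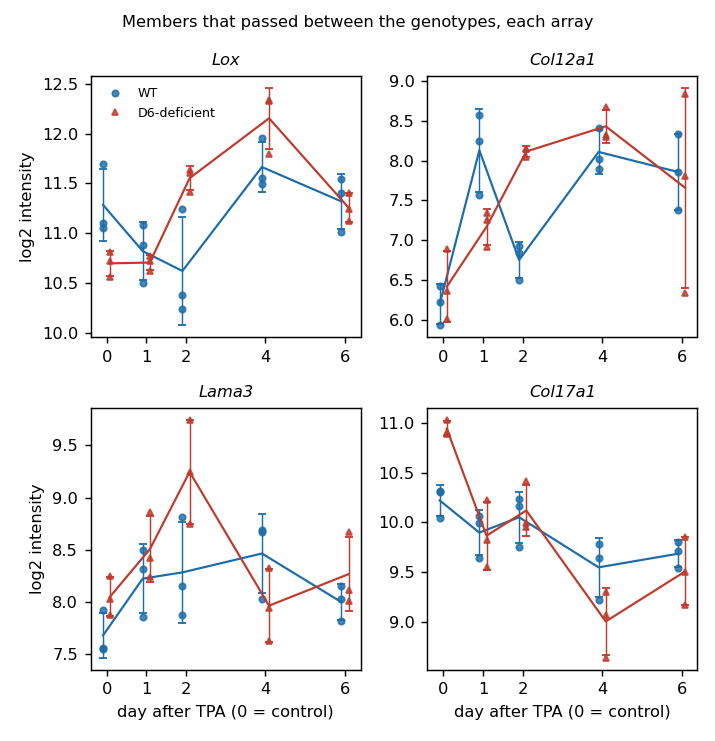
Log2 intensity (vertical axes, each with its own range) on each array of WT skin (blue circles) and D6-deficient skin (red triangles) against day (horizontal axis) for Lox, Col12a1, Lama3 and Col17a1, with lines through group means and bars of 1 SD, n = 3. On day 2 the genotypes separate in Lox and Col12a1 and overlap in Lama3. Col17a1 goes from 10.88 to 11.03 on D6-deficient day 0 to 8.64 to 9.30 on day 4, and its genotype difference passed on neither day.

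On days 1, 4 and 6 the count between the genotypes was 0 of 86 in limma, against 0.0555%, 0.513% and 0.125% of all tested probe sets. An unadjusted p under 0.05 was held by 2887, 3621 and 3015 of all 36029 and by 2, 18 and 1 of the 86. On day 4 the smallest adjusted p values were those of Thbs2, at 0.61 (SE 0.16, adjusted p = 0.0988), Postn, at -0.68 (SE 0.18, adjusted p = 0.102) and Col14a1, at -0.87 (SE 0.24, adjusted p = 0.109). For these 3 genes the WT and D6-deficient arrays did not overlap, with Thbs2 at 9.35, 9.52 and 8.96 in WT and 9.88, 9.79 and 10.00 in D6-deficient skin. Postn leaned on single arrays, at -0.36 without WT replicate 2 and at -0.86 without WT replicate 3, where it passed (adjusted p = 0.0481). On day 1 Col12a1 was at -0.96 (SE 0.38, adjusted p = 0.533), Fmod at -0.50 (SE 0.25, adjusted p = 0.634) and Dcn at -0.13 (SE 0.08, adjusted p = 0.688). On day 6 Serpinh1 was at -0.43 (SE 0.20, adjusted p = 0.568), Dcn at -0.15 (SE 0.08, adjusted p = 0.631) and Lamc1 at -0.28 (SE 0.16, adjusted p = 0.668).

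The change from day 0 in D6-deficient skin was also compared with that in WT skin. Lox differed in this test on day 2, the 2 probe sets that passed of 86 (2.33%, against 5.4% of all tested probe sets) both being its own. It fell by 0.66 on WT day 2 (adjusted p = 0.0264) and rose by 0.86 on D6-deficient day 2 (adjusted p = 0.00312), a difference of 1.52 (SE 0.31, adjusted p = 0.00375, 95% interval 0.88 to 2.16). On its second probe set the difference was 1.73 (SE 0.34, adjusted p = 0.00275). WT arrays went from 11.11, 11.70 and 11.05 to 10.38, 11.25 and 10.24, and D6-deficient arrays from 10.72, 10.81 and 10.56 to 11.41, 11.61 and 11.64. The D6-deficient arrays thus lay below each WT array on day 0, where Lox did not pass between the genotypes. Part of the 1.52 therefore lies in the controls, and the direct difference on day 2 was 0.93. Within the array sets the difference in change of Lox was 1.58 and 1.49, and with 1 array left out at a time it passed in 12 of 12 cases, with adjusted p up to 0.0163. Fbln2 came next at 0.73 (SE 0.22, adjusted p = 0.0539) and Thbs2 at 0.59 (SE 0.23, adjusted p = 0.168). Fbln2 was at 10.50, 10.53 and 9.94 on D6-deficient day 0 and 10.70, 11.02 and 11.12 on day 2, against 10.86, 10.95 and 10.50 and 10.56, 10.79 and 10.65 in WT skin.

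On day 4, 1 of 86 passed in this test (1.16%, against 0.608% of all tested probe sets). Col17a1 fell by 1.93 in D6-deficient skin and by 0.67 in WT skin, a difference of -1.26 (SE 0.28, adjusted p = 0.0367, 95% interval -1.84 to -0.68). On day 0 it stood 0.72 higher in D6-deficient skin. On day 4 its group means were 9.01 in D6-deficient and 9.55 in WT skin, and the direct comparison of the genotypes passed on neither day. With 1 array left out at a time the difference in change missed the threshold in 10 of 12 cases, with adjusted p up to 0.107. The adjusted p was 0.0525 with the replicate number as a block and 0.0546 with only the arrays of the contrast, and the difference was -1.03 and -1.58 within the array sets. Lamb3 at -1.18 (SE 0.31, adjusted p = 0.0791) and Col7a1 at -0.86 (SE 0.22, adjusted p = 0.0774), which like Col17a1 belong to the epidermal junction, came next. WT arrays of Lamb3 were at 7.74, 7.96 and 7.87 on day 0 and 8.25, 7.63 and 8.17 on day 4, and D6-deficient arrays at 8.55, 8.45 and 8.55 and 7.39, 7.23 and 7.88. The D6-deficient arrays of Lamb3 thus lay above each WT array on day 0, and the genotypes overlapped on day 4. Of 5 keratinocyte markers 3 passed in the same test with a lower change in D6-deficient skin, with WT and D6-deficient changes of 1.10 and -0.13 for Krt14, of 0.22 and -1.15 for Krt5 and of -0.02 and -1.05 for Trp63, and the median difference of the 5 was -1.25. These markers were not all lower in WT skin, and their part in the values of these genes was not tested. On days 1 and 6 the count was 0 of 86, against 0.0194% and 0.025% of all tested probe sets. In limma, 3494 and 2886 of all 36029 and 8 and 6 of the 86 had an unadjusted p under 0.05. The smallest adjusted p values were those of Col17a1 at -0.75 (adjusted p = 0.369), Col12a1 at -1.19 (adjusted p = 0.475) and Col7a1 at -0.46 (adjusted p = 0.509) on day 1, and of Col17a1 at -0.90 (adjusted p = 0.375), Fap at 0.75 (adjusted p = 0.491) and Col14a1 at 0.79 (adjusted p = 0.560) on day 6. With SEs of 0.22 to 0.54 these values leave wide intervals, as from -1.33 to -0.17 for Col17a1 on day 1.

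Other genes of the matrix, from lists taken by symbol, were counted on day 4 in the same way. These counts stand against 17.3% higher and 21.8% lower of all tested probe sets in WT skin and 18.8% and 22.4% in D6-deficient skin. Of 12 other collagens, 3 rose and 6 fell in both genotypes. Col8a1, a collagen of vessel walls, rose by 1.55 in WT and 1.87 in D6-deficient skin, while Col4a5 and Col4a4, chains of other type IV networks, changed by -2.69 and -2.50 in WT and by -3.16 and -2.46 in D6-deficient skin. Of 10 other basement membrane genes, 1 rose and 6 fell in WT and 2 rose and 3 fell in D6-deficient skin. Lama2, the laminin alpha chain of muscle, fell by 2.45 and 2.52 and Lamb2 by 1.38 and 1.06. Nid2, a linker of laminin and type IV collagen, was at 0.48 in WT skin and rose by 1.67 in D6-deficient skin, and Agrn fell by 0.72 and 1.16. Of 14 collagen maturation enzymes, 6 rose and 2 fell in WT and 7 rose and 2 fell in D6-deficient skin. Loxl3, a lysyl oxidase, rose by 0.77 and 1.33 and Lepre1, a prolyl hydroxylase, by 0.66 and 1.23, whereas Adamts2, which removes the amino propeptide of procollagen, fell by 1.43 and 1.12 and Pcolce2, an enhancer of procollagen cleavage, by 0.91 and 1.16.

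Of 14 matrix receptors, 7 rose and 2 fell in WT and 6 rose and 3 fell in D6-deficient skin. Cd44, the hyaluronan receptor, rose by 1.47 and 0.86, the collagen-binding integrin chains Itga2 and Itga1 by 1.07 and 0.86 in WT and by 0.95 and 1.11 in D6-deficient skin, while Itgb5 fell by 1.00 and 0.61 and the collagen receptor Ddr1 by 0.50 and 0.96. Of 12 TGF-beta and CCN factors, 6 rose and 4 fell in WT and 5 rose and 4 fell in D6-deficient skin. Cyr61, a CCN family protein, rose by 1.32 and 1.49, and Ltbp4 and Ltbp1, latent TGF-beta binding proteins, fell by 1.35 and 1.09 in WT and by 1.30 and 1.33 in D6-deficient skin. Of 5 other hyaluronan genes, 3 rose in both genotypes and 1 fell in D6-deficient skin. Has3, a synthase of keratinocytes, rose by 3.63 in WT skin and 2.39 in D6-deficient skin, and Tnfaip6, which links proteins to hyaluronan, by 2.16 and 1.72, while the hyaluronidase Hyal2 rose by 0.60 and 0.39 and Hyal1 was at 0.46 in WT skin and fell by 0.74 in D6-deficient skin.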

How the data were processed

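RNA from back skin was hybridized to 30 Affymetrix mouse genome arrays, 3 in each of 10 groups of genotype and day, and groups were taken from the sample titles. The authors deposited linear probe set intensities after robust multiarray analysis (RMA, per the labels' processing notes and the methods), which corrects background, sets the arrays to a shared distribution and summarises the probes of a set. Such values compress low signals, and their scanner intensities were not analysed here. The second deposited table is a sample sheet and holds no measurements.

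The intensities were converted to log2 with no further normalization. After 64 control probe sets, the dimmest 20% by their mean signal (9008) were dropped, and 36029 were fitted with limma 3.58.1 in R 4.3.3, with 1 mean for each group and a variance shared over the 30 arrays. Contrasts were each TPA day against day 0 within a genotype, D6-deficient against WT within a day, the difference between genotypes in the change from day 0, and neighbouring days. Adjusted p values follow Benjamini-Hochberg over all tested probe sets of a contrast, with a threshold of 0.05. Promoter windows and figures used Python 3.11.15 with pandas 2.3.3 and matplotlib 3.10.9. Scripts were tested on simulated data. The number of arrays limits the precision of all values.

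The members and gene lists were chosen with earlier results of these data known. Genes named with full statistics were, for each genotype on day 4, the 5 largest rises and the 5 largest falls that passed with arrays not overlapping those of day 0, and, for each comparison of genotypes, those that passed and otherwise the 3 with the smallest adjusted p. Genes of other lists were named for the 3 largest day 4 changes of a list, of which some are counted but not reported here by name, and further values of members were chosen after they were seen. Alternatives were other filters and centring, moderated tests with trend, the methods' t-test, array set, replicate number, only the arrays of a contrast, the mean of a gene's probe sets and leaving out each array.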

Additional observations from a re-analysis of the deposited data

Results flagged for a closer look

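The change from day 0 differed between the genotypes by the test of that difference in limma for 2 genes. For Lox on day 2 the change in D6-deficient skin exceeded that in WT skin by 1.52 on the log2 scale on the brightest probe set and by 1.73 on the second. On the brightest, D6-deficient arrays lay below each WT array on day 0, and the direct genotype difference on day 2 was 0.93. Part of the 1.52 thus lies in the controls. For Col17a1 on day 4 the difference was -1.26, with the larger fall in D6-deficient skin. That call was lost with the replicate number as a block (adjusted p = 0.0525), with only the arrays of the contrast (adjusted p = 0.0546) and in 10 of 12 cases with 1 array left out. Col17a1 stood 0.72 higher in D6-deficient skin on day 0, and the direct comparison of the genotypes passed on neither day 0 nor day 4.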

How the results depend on the processing

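No result reversed its direction under the alternatives run. Without the low filter, with each array centred on its median, with an intensity trend and robust prior, with array set as a covariate or with single-symbol probe sets, each of 17 counts stayed within 1.5 times its value, although Fbln2 on day 2 then also passed for the difference in TPA change with the trend (adjusted p = 0.0438) or with array set (adjusted p = 0.0381). Centring moved the median of all probe sets on D6-deficient day 4 from 0.01 to 0.12. Asking for over 3-fold as well left 5, 2, 11 and 3 matrix probe sets on WT days 1, 2, 4 and 6, 4, 8, 14 and 4 on the same D6-deficient days, 0 between the genotypes on day 2, and 1 and 0 in the difference in TPA change on days 2 and 4. The methods' t-test at its unadjusted threshold and over 3-fold gave the same counts, and after Benjamini-Hochberg 2, 2, 10 and 0, 4, 8, 13 and 1, 0, and 0 and 0. With only the arrays of a contrast the count was 13 on WT day 6, 2 between the genotypes on day 0, and 4 and 0 in the difference on days 2 and 4, where Col17a1 had an adjusted p of 0.0546. Lox and Lama3 then missed the threshold between the genotypes on day 2 (adjusted p = 0.0707 and 0.113), and Col17a1 passed on day 0 (adjusted p = 0.0405).

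Leaving out 1 array at a time gave 19 to 29, 17 to 27, 38 to 50 and 10 to 27 on WT days 1, 2, 4 and 6, and 28 to 33, 27 to 36, 42 to 54 and 25 to 33 in D6-deficient skin. Between the genotypes it gave 0 to 2 on day 0 (2 without WT replicate 1 or D6-deficient replicate 2 of day 0), 1 to 5 on day 2, 0 to 1 on day 4 (1 without replicate 3 of either genotype) and 0 on days 1 and 6. In the difference it gave 2 to 5 on day 2 (5 without D6-deficient day 0 replicate 2), 0 to 2 on day 4 (2 without D6-deficient day 4 replicate 3) and 0 on days 1 and 6. Between the genotypes on day 2, Lox missed the threshold without WT replicate 1 (adjusted p = 0.0792) or 3 (0.0952) or D6-deficient replicate 2 (0.0554) or 3 (0.0522). Lama3 missed it in 4 of 6 cases, with adjusted p up to 0.212, and Col12a1 in 6 of 6, with adjusted p up to 0.146. In the difference in TPA change, Fbln2 on day 2 passed in 3 of 12 cases and Lamb3 on day 4 in 1 of 12. With the mean of its probe sets Lama3 was at 0.45 (adjusted p = 0.0785). The cause of these changes was not tested.

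Arrays with the same replicate number were taken to deviate together where all 3 pairs correlated over 0.1, which held in 0 of 13 contrasts. Correlations ran from -0.29 to 0.38 and were positive in all 3 pairs of some contrasts, as at 0.27, 0.38 and 0.08 between the genotypes on day 6. With the replicate number as a block, the difference in TPA change on day 4 went from 1 to 0 probe sets (Col17a1, adjusted p = 0.0525), and no other count left its range of 1.5 times.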
